A study of Mus musculus with 4 samples.

Results

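Heat shock proteins and other chaperones were chosen by gene symbol among the transcripts of mouse embryonic stem (ES) cells of the line CGR8: the HSP70 and HSP110 (Hspa, Hsph1), HSP90, small HSP (Hspb) and J protein (Dnaja, Dnajb, Dnajc) families, the chaperonins Hspd1, Hspe1, Tcp1 and Cct, prefoldin (Pfdn), and Hsf2, Stip1, Bag3 and Calr. The platform annotation gave 91 such genes on 217 probe sets, of 18193 genes with a probe set of 1 symbol, and each gene was read from its brightest probe set, by the mean log2 signal of the 4 arrays. Signal was high enough for a test in 86 of the 91 and in 14445 genes in all. Hsf1 and Hsp90ab1 were not analysed here. Hspbp1 and Hspbap1, whose products bind heat shock proteins, carry a matching symbol and were kept.

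The study compared cells in medium that held 1000 U/ml of leukemia inhibitory factor (LIF) with cells moved to medium lacking it, for 2 days, on 2 arrays each. LIF is the cytokine that holds ES cells in the undifferentiated state. Both groups were the same line on gelatin in medium with serum replacement, 1 line and 1 time point, and no sample was given a heat shock or another stress in the labels. Arrays of a group are numbered 1 and 2, and nothing in the labels says that they came from separate cultures, so the spread behind each p-value is that of these arrays and may be technical only.

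Chaperones bind proteins that are not yet folded or have lost their fold. HSP70 proteins bind short exposed stretches and release them on ATP exchange. J proteins deliver clients to HSP70 and start its ATP hydrolysis, and nucleotide exchange factors reset it. HSP90 acts later on kinases and receptors, small HSPs hold clients without ATP, and the barrel-shaped chaperonins (HSP60 in mitochondria, TRiC in the cytosol) enclose them. Many of these genes are induced by heat through the factor HSF1 and by load in the endoplasmic reticulum (ER) through ATF6 and XBP1, while others are expressed at a steady level. ES cells are known for high chaperone levels.

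Markers of ES cell identity were detected in both groups, but most read lower without LIF. Of 8 pluripotency markers all were detected, and 7 were lower on both arrays without LIF (87.5%, against 15.2% of all tested genes). The exception was Pou5f1 (Oct4), with signals of 9035 and 8246 with LIF against 7212 and 10632 without LIF. Klf4 and Esrrb fell without LIF (log2 changes of -3.84 and -2.27; limma adjusted p = 0.01 and 0.031). Nanog, Zfp42, Tdgf1, Sox2 and Utf1 also read lower but did not pass. The summed signal of 8 primitive endoderm markers was 5384 and 13098 with LIF and 6093 and 20094 without LIF, and none of the 8 was at 0. Arrays numbered 2 were the higher in both groups. They also read 2990.4 and 5150.4 for 18S ribosomal RNA, against 451 and 462 on the arrays numbered 1. The 8 pluripotency markers summed to 84404 and 101559 with LIF against 38137 and 53128 without, 4 neuroectoderm markers to 965 and 508 with LIF against 2523 and 872 without, 4 mesoderm markers to 319.8 and 349.7 with LIF against 436 and 574 without and 5 fibroblast markers to 578 and 282 with LIF against 719 and 330 without, with none at 0. For this reason the change within each number is given for some of the members, and the part of that split in any result was not tested. In such bulk RNA, fewer cells of a type and less RNA per cell cannot be told apart.

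For most chaperones the measured change on withdrawal of LIF was small. None of the 86 tested members passed limma's test over all genes (Benjamini-Hochberg adjusted p of 0.05), in either direction, against 21 of 14445 genes tested (0.145%). At an unadjusted p of 0.05 there were 6 members (6.98%) and 1573 genes (10.9%). The median log2 change (without LIF minus with LIF) was -0.07 over the members and 0.09 over all tested genes, and -0.06 and -0.03 within the numbers 1 and 2. With quantile normalization the medians were -0.05 and 0.02. Centring each array on its median instead moved the median of all genes by -0.29, to -0.20, and that of the members to -0.36.

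The log2 change lay within 0.5 of 0 for 72 of 86 members (83.7%, against 69.2% of all tested genes) and reached 1 in size for 4 (4.65%, against 11.5%): Dnajc6 (lower) and Dnajb8, Hspb11 and Dnajb5 (higher). The members were also brighter, with a median mean log2 signal of 10.5 against 8.49 over all tested genes, and the part of brightness in these shares was not tested. For 56 members the 95% interval of the change lay between -1 and 1, so a change of 2-fold was outside it. For the other 30 the arrays do not bound the change that closely. Both arrays without LIF lay above both arrays with LIF for 12 members (14.0%, against 27.3% of all tested genes) and below them for 16 (18.6%, against 15.2%).

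**Figure D1:**
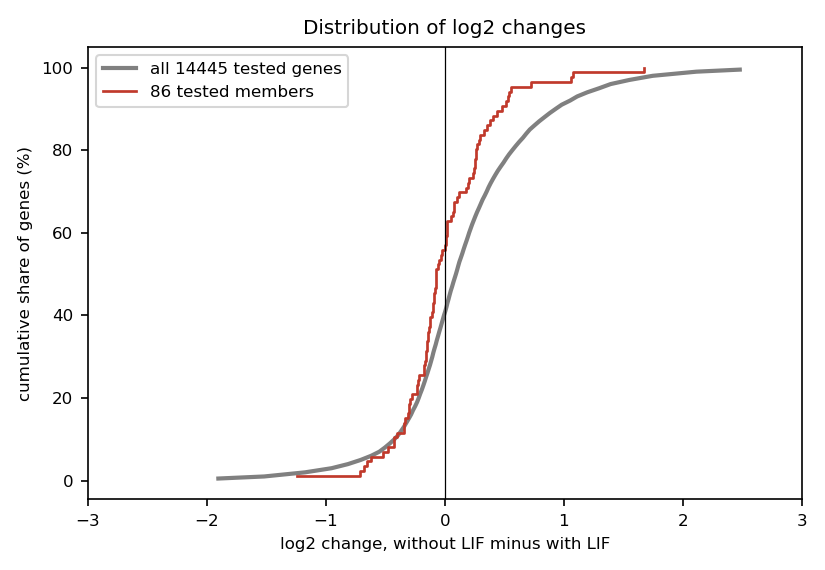
Cumulative share (%) of the 86 tested members (red steps) and of all 14445 tested genes (grey line) by log2 change, without LIF minus with LIF. The median is -0.07 for the members and 0.09 for all genes; 4 members lie beyond 1 in size, and the horizontal axis ends at -3 and 3.

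**Figure D2:**
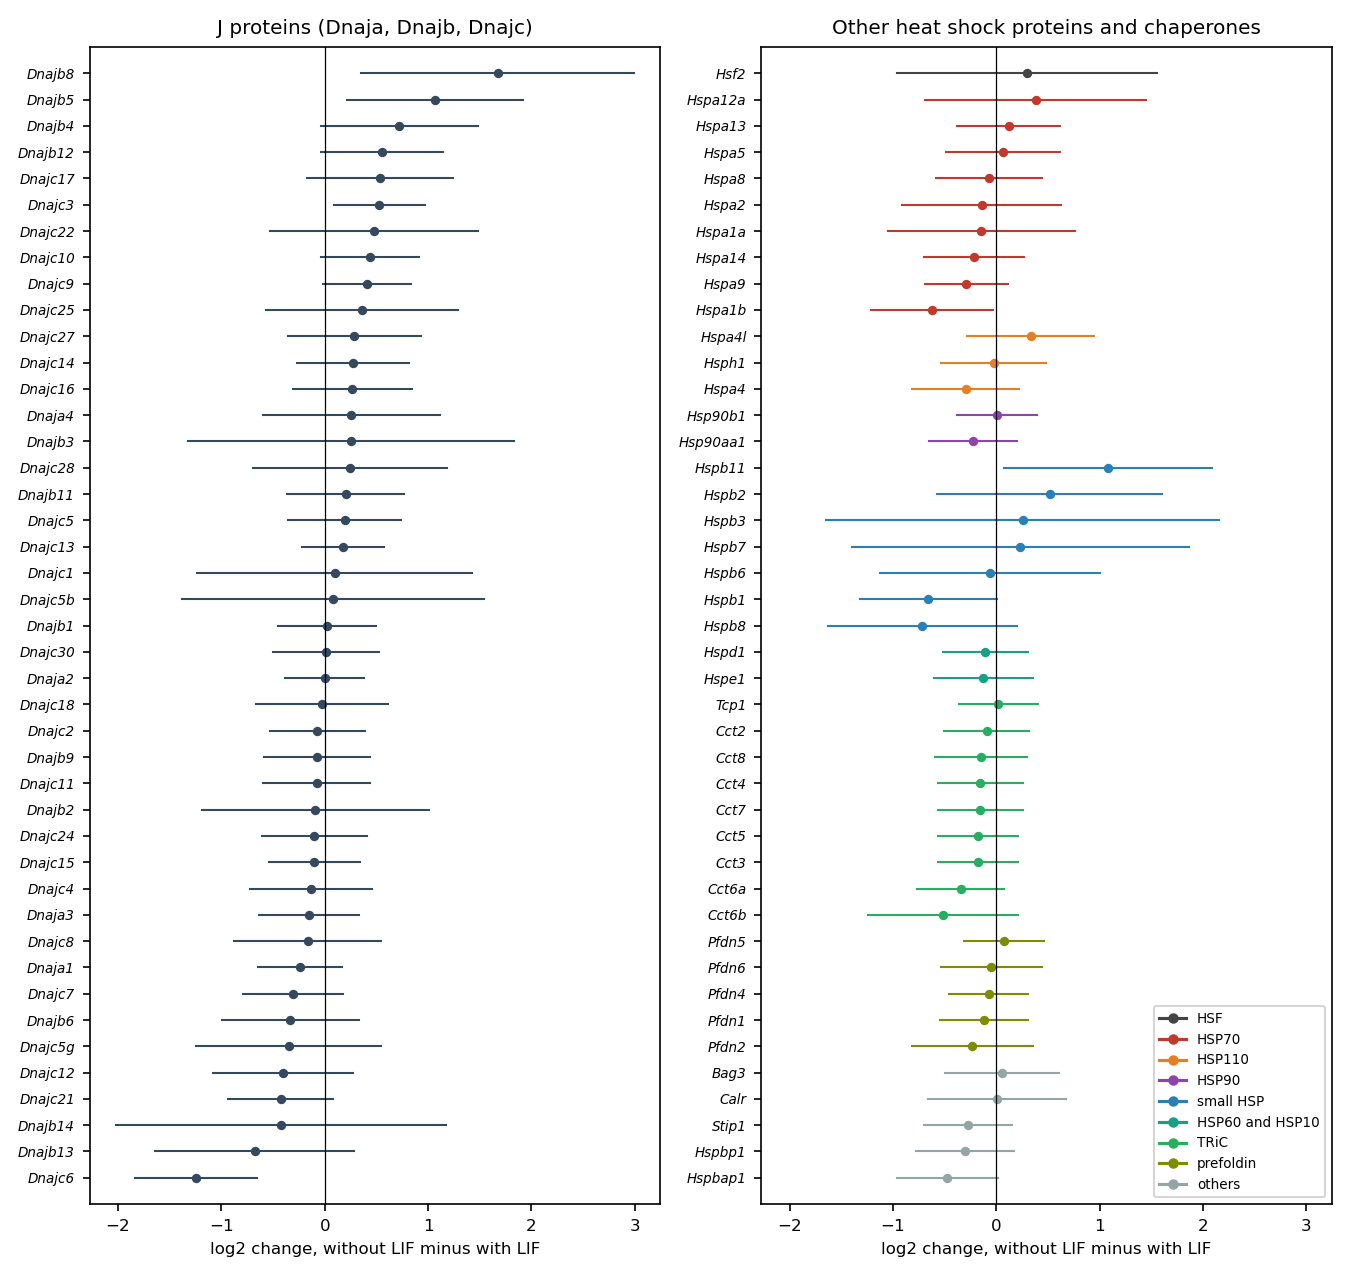
Log2 change (point) and its 95% interval from limma (line) for each tested member, with the 43 J proteins on the left and the other 43 members on the right, coloured by family. The interval of Dnajc6 (-1.84 to -0.66) lies below 0 and that of Dnajb8 above it, while most others cross 0.

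The heat-inducible genes come first, because heat shock factors bind them. Hsf2, a heat shock factor active in development, was dim, with signals of 52.7 and 41.7 with LIF against 67.2 and 49.4 without LIF. Its groups overlapped (log2 change 0.30, SE 0.53, adjusted p = 0.89; -0.04 with quantile normalization). Heat shock factors recognise the heat shock element, inverted repeats of GAA. RefSeq promoters of assembly GRCm38.p6, from 250 bases before to 50 after each start, were found for 76 of the 91 members and searched on both strands. The 3-unit element (GAA, TTC and GAA, or TTC, GAA and TTC, with 2 bases of any kind between units) stood in promoters of 4 of the 76, Hspe1, Hspd1, Dnajb6 and Hsph1 (5.26%), and in those of 0.662% of 27025 genes. The shorter pair GAANNTTC, which lies inside both forms, stood in 17 of 76 (22.4%) and in 9.04% of all genes. A match is a description of letters and not a bound site.

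The stretches below hold the elements of members whose values follow, read 5′ to 3′ on the strand of the gene, with the GAA and TTC units in capitals. Those of Hspe1 and Hspd1 are the same bases on opposite strands (chr1:55088039-55088096, plus strand for Hspe1), since these genes share a promoter. The others are Dnajb6 (chr5:29735832-29735884, plus strand), Hspb1 (chr5:135887782-135887849, plus strand), Hspa1b (chr17:34959315-34959362, minus strand) and Hspa1a (chr17:34972233-34972280, minus strand). All lie upstream of an annotated start.
Hspe1: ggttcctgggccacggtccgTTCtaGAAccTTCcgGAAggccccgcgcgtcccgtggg
Hspd1: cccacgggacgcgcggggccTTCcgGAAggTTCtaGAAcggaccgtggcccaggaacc
Dnajb6: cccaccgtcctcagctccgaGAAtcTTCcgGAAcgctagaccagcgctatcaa
Hspb1: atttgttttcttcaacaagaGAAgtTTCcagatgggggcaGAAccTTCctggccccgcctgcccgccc
Hspa1b: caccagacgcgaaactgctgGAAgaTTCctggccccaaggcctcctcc
Hspa1a: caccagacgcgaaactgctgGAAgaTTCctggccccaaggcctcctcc

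Tested members with the pair GAANNTTC had a median log2 change of -0.12 (16 members, from -0.72 to 0.29, 12 below 0), and the 55 with a promoter lacking it -0.0018 (from -1.25 to 1.67). Hspb1 carries the pair at positions -117 and -97 from its start, and the near-identical genes Hspa1a and Hspa1b at -104, in promoters that differ at 4 of 300 bases.

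Hspa1b, the classical inducible HSP70, read lower without LIF. Its signals were 1213 and 867 with LIF against 747 and 594 without LIF, and both arrays without LIF lay below both with LIF. The difference was 1.54-fold (log2 change -0.62, SE 0.25, 95% interval -1.22 to -0.03), -0.70 between the arrays numbered 1 and -0.55 between those numbered 2, and did not pass (adjusted p = 0.43). Its other 2 probe sets had log2 changes of -0.66 and -0.44, both with overlapping groups. Hspa1a, the neighbouring copy, had signals of 185 and 165 with LIF against 212 and 118 without LIF, with overlapping groups (log2 change -0.14, SE 0.38, adjusted p = 0.92). Probes of these copies can share targets, so their values are not separate measurements with certainty. Dnajb1 (HSP40), the J partner of inducible HSP70, read 3125 and 2346 with LIF against 2841 and 2654 without LIF (log2 change 0.02, 95% interval -0.46 to 0.49, adjusted p = 0.99).

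Among the constitutive HSP70 genes, Hspa8 (HSC70), the cytosolic housekeeping form, had signals of 36186 and 41149.6 with LIF against 30485 and 44219.7 without LIF. The array without LIF numbered 1 was the lowest and the one numbered 2 the highest, so the groups overlapped (log2 change -0.07, 95% interval -0.59 to 0.44, adjusted p = 0.93). The highest signals on the arrays were 36401 to 50488, so Hspa8 lay near the top of the scale. Hspa9 (mortalin), the mitochondrial HSP70, read 10951 and 11930.3 with LIF against 8595 and 10182 without LIF, with both arrays without LIF the lower. That difference was 1.22-fold (log2 change -0.29, SE 0.17, adjusted p = 0.59), and a second bright probe set read -0.05. Hspa14, a ribosome-associated HSP70, had signals of 3732 and 4581 with LIF against 3124 and 4039 without LIF (log2 change -0.22, adjusted p = 0.76). Hspa13 and Hspa2, the latter known from male germ cells, had log2 changes of 0.12 and -0.14, and the atypical Hspa12a read 74.2 and 64.3 with LIF against 109.5 and 73.8 without LIF (log2 change 0.38, adjusted p = 0.81). Over the 9 tested HSP70 genes 6 were below 0 (66.7%, against 40.6% of all tested genes) and 2 lay apart, both lower (22.2%, against 15.2%), with a median of -0.14 (-0.16 with quantile normalization). Hspa1l and Hspa12b were too dim to test, at signals of 8.6 or less.

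HSP110 proteins are HSP70 relatives that serve as its nucleotide exchange factors. Hspa4 (Apg-2) read 16590.2 and 18772 with LIF against 11839 and 17401 without LIF, lowest on array 1 without LIF (log2 change -0.30, SE 0.22, adjusted p = 0.68). Its other probe sets read 0.10, 0.34 and, at the dimmest, -0.72, all with overlapping groups. Hspa4l (Apg-1) had signals of 259 and 252 with LIF against 337 and 307 without LIF, so both arrays without LIF were the higher. The size was 1.26-fold (log2 change 0.33, adjusted p = 0.70), and its other 4 probe sets read 0.41 to 0.65. Hsph1 (HSP105), the heat-inducible member, read 4009 and 2777 with LIF against 3225 and 3327 without LIF with overlapping groups (log2 change -0.03, 95% interval -0.54 to 0.48, adjusted p = 0.98; 0.03 with quantile normalization).

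Stip1, Hspbp1, Hspbap1, Bag3 and the ER chaperone Calr, described with the ER genes, are the 5 members outside the chaperone families and Hsf2. Of these 5, 3 lay apart, all lower (60%, against 15.2% of all genes). Stip1 (HOP), which hands clients from HSP70 to HSP90, read 6467 and 5789.8 with LIF against 5569.6 and 4597 without LIF (log2 change -0.27, SE 0.18, adjusted p = 0.63). Hspbp1, an exchange factor of HSP70, had signals of 912 and 877 with LIF against 752 and 699 without LIF (log2 change -0.30, adjusted p = 0.63). For Hspbap1, which binds Hspb1, they were 948 and 934 with LIF against 627 and 732 without LIF (log2 change -0.47, adjusted p = 0.47). In Stip1, Hspbp1 and Hspbap1 both arrays without LIF lay below both with LIF, by 1.21-, 1.23- and 1.39-fold. Dimmer probe sets of Hspbap1 read from -0.15 to 0.72. Bag3, which links HSP70 to Hspb8 and autophagy, overlapped at 538 and 497 with LIF against 481 and 596 without LIF (log2 change 0.05, adjusted p = 0.96; -0.04 with quantile normalization).

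HSP90 was represented by its inducible cytosolic form and its ER form. Hsp90aa1 read 29686 and 34314 with LIF against 24872 and 29964 without LIF, with array 2 without LIF inside the range of the group with LIF. Its log2 change was -0.23 (SE 0.18, 95% interval -0.65 to 0.20, adjusted p = 0.71), and its other bright probe sets read -0.16 and -0.34. The Hsp90aa1 mean over all probe sets, dim ones included, read 0.13. Hsp90b1 (GRP94) had signals of 11209 and 10396 with LIF against 11545 and 10223 without LIF, with a change of 0.01 (95% interval -0.38 to 0.40, adjusted p = 0.99).

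Small HSPs lay on both sides of 0. Hspb1 (HSP25 in the mouse), a holdase induced by heat, read 14657 and 18816 with LIF against 7992 and 13857 without LIF. Both arrays without LIF were lower than both with LIF, by 1.58-fold (log2 change -0.66, SE 0.28, 95% interval -1.32 to 0.0047, adjusted p = 0.46). The change was -0.87 between the arrays numbered 1 and -0.44 between those numbered 2, and its second probe set, at 13221 and 16799 with LIF against 6185 and 11038 without LIF, read -0.85. The value depends on single arrays. It read -1.06 on leaving out array 2 of the group without LIF, and -0.26 on leaving out array 1 of that group. Hspb8 (HSP22), the partner of Bag3, had signals of 314 and 242 with LIF against 231 and 122 without LIF. These too were lower on both arrays without LIF, by 1.64-fold (log2 change -0.72, SE 0.39, adjusted p = 0.56; -0.26 on leaving out array 2 of the group without LIF and -1.18 on leaving out its array 1).

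Hspb11 ran the other way. Despite its name it is known as IFT25, a part of the intraflagellar transport complex of cilia. Its signals were 236 and 162 with LIF against 613 and 278 without LIF, all higher without LIF, with array 1 without LIF far above the rest. The difference was 2.11-fold (log2 change 1.08, SE 0.42, 95% interval 0.07 to 2.08, adjusted p = 0.42), 1.38 between the arrays numbered 1 and 0.78 between those numbered 2. On leaving out array 2 of the group without LIF it read 1.65, and on leaving out its array 1 it read 0.51. Hspb2, known from muscle, read 113 and 62.2 with LIF against 141 and 102 without LIF (log2 change 0.52, adjusted p = 0.75). The muscle-type Hspb3, Hspb6 and Hspb7 lay at signals of 17.5 to 82.7, with log2 changes of 0.25, -0.06 and 0.23 and SEs of 0.80, 0.45 and 0.69, so these are hardly bounded. Hspb9 was too dim to test. The median of the 7 tested small HSPs was 0.23, and -0.14 with quantile normalization and -0.06 with a common median, so the family as a whole had no settled direction.

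J proteins, the largest family here with 43 tested of 44, held the largest differences. Dnajc6 (auxilin), which with HSC70 strips the clathrin coat from vesicles, had the smallest p of any member. Its signals were 1023 and 1185 with LIF against 389.7 and 553 without LIF, with a clear gap between the groups (means of 1104 ± 114 with LIF against 471 ± 115 without it (SD, n = 2)). This 2.37-fold lower level (log2 change -1.25, SE 0.25, 95% interval -1.84 to -0.66) missed the threshold (adjusted p = 0.12), with -1.39 between the arrays numbered 1 and -1.10 between those numbered 2. On leaving out array 2 of the group without LIF it read -1.50, and on leaving out any other array it read -0.99 to -1.35. A pair of dimmer Dnajc6 probe sets read -1.19 and -0.94. The dimmest one, at 14.6 and 20.6 with LIF against 51.5 and 34.6 without LIF, read 1.28, and the Dnajc6 mean over all 4 probe sets was -0.52.

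Dnajb8, Dnajb5, Dnajb4 and Dnajc3 were higher without LIF on both arrays. Dnajb8, which suppresses aggregation and is known from testis, read 23.5 and 31.4 with LIF against 104 and 72 without LIF. Its 3.19-fold difference (log2 change 1.67, SE 0.56, adjusted p = 0.34) starts from signals close to the level set for testing (22.9), so its size is uncertain. Dnajb5 had signals of 239 and 128 with LIF against 378 and 354 without LIF, 2.09-fold higher without LIF (log2 change 1.06, SE 0.36, adjusted p = 0.35; 0.66 between the arrays numbered 1 and 1.47 between those numbered 2). Its other 2 probe sets read 0.67 and 0.76, both with groups apart. Dnajb4 read 139 and 208 with LIF against 267 and 295 without LIF (log2 change 0.72, adjusted p = 0.48), but its dimmer 2 probe sets read 0.11, with overlapping groups, and -0.22, lower on both arrays without LIF.

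**Figure D3:**
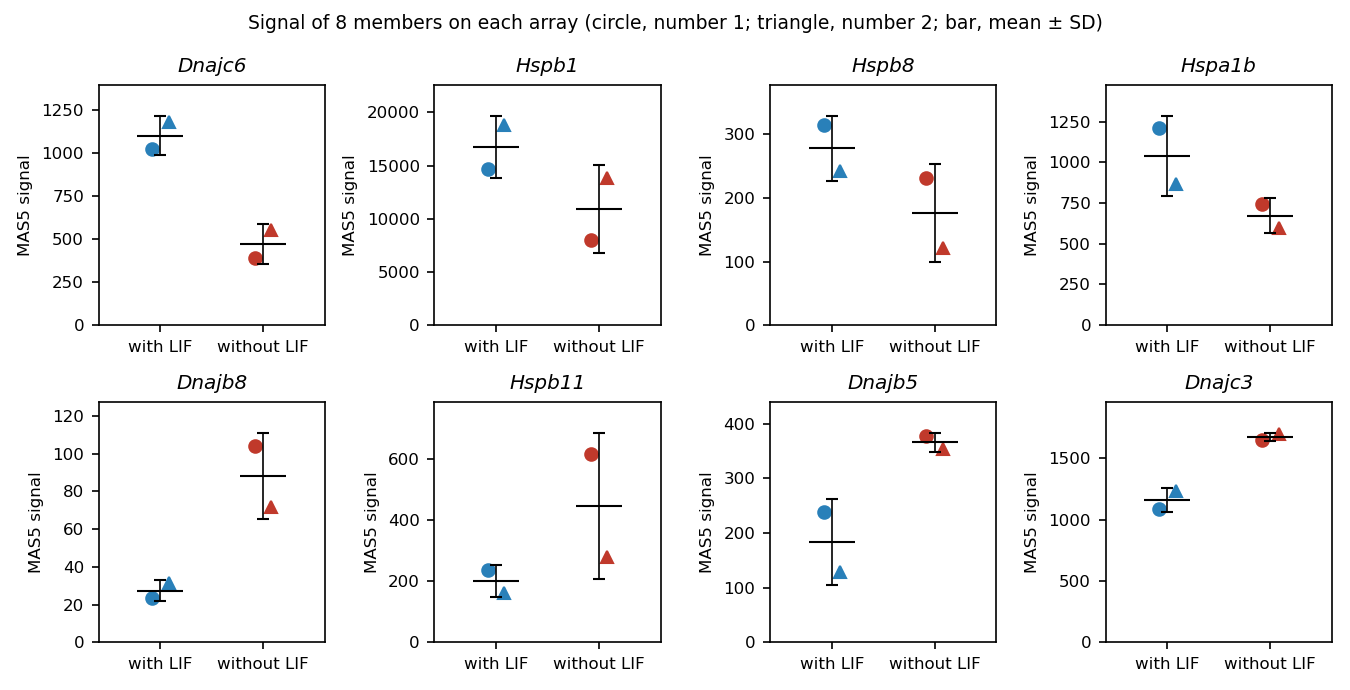
MAS5 signal of 8 members on each array, with LIF (blue) and without (red), as circles for number 1 and triangles for number 2; bars are the mean and SD of 2 arrays, and each vertical axis starts at 0. In all 8 the groups do not overlap, with Dnajc6, Hspb1, Hspb8 and Hspa1b lower and Dnajb8, Hspb11, Dnajb5 and Dnajc3 higher without LIF.

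The remaining J proteins lay between -0.68 and 0.55. Class A, the relatives of bacterial DnaJ, held Dnaja1 at 12535 and 12715 with LIF against 9753 and 11791 without LIF (log2 change -0.24) and Dnaja2 at 13200.4 and 14010.3 with LIF against 12772 and 14444 without LIF (-0.0018). The dimmer probe sets of Dnaja1 read 0.02 and 0.08, both with overlapping groups. Dnaja3, the mitochondrial form, and Dnaja4 read -0.15 and 0.26. In class B, Dnajb6, which blocks amyloid growth and carries the element printed above, read 6983 and 8809 with LIF against 4719 and 8203 without LIF (log2 change -0.33, adjusted p = 0.73; 0.065 on leaving out array 1 of the group without LIF), with its other 3 probe sets at -0.21 to -0.40. Dnajb12, of the ER membrane, was 1.47-fold higher, and Dnajb13, of the sperm axoneme, 1.6-fold lower, both with groups apart (adjusted p = 0.49 and 0.60). Class C is the most varied. Dnajc9, which chaperones histones, was higher on both arrays without LIF (3327 and 3543 with LIF against 4119 and 5025 without LIF; log2 change 0.41, adjusted p = 0.48). Dnajc21, of ribosome assembly, was lower on both (2854 and 2087 with LIF against 1706 and 1934 without LIF; -0.43, adjusted p = 0.53).

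Log2 changes of other class C members follow. The ribosome-bound Dnajc2 read -0.07, the mitochondrial Dnajc11, Dnajc15 and Dnajc30 -0.08, -0.10 and 0.02, the endosomal Dnajc13 0.18 and the synaptic vesicle protein Dnajc5 0.19. Dnajc8, a splicing factor, and Dnajc7, an HSP90 cofactor, read -0.16 and -0.31. None of these passed, with adjusted p from 0.64 to 0.99. Over the 43 tested, 23 were above and 20 below 0, with a median of 0.02 (-0.02 with quantile normalization and -0.27 with a common median), and 10 lay apart on the higher side and 5 on the lower (23.3% and 11.6%, against 27.3% and 15.2% of all genes). Dnajb7 was too dim to test.

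The mitochondrial folding chamber is HSP60 (Hspd1) with its lid HSP10 (Hspe1). Hspd1 read 19166 and 20809 with LIF against 16927 and 20354 without LIF and Hspe1 13504 and 16160.1 with LIF against 11762 and 15608 without LIF. In both genes array 1 without LIF was the lowest and the others overlapped. Log2 changes were -0.11 and -0.12 (95% intervals -0.51 to 0.30 and -0.60 to 0.35; adjusted p = 0.87 for each). Of the 13 genes of the list of mitochondrial folding and proteolysis, 0 passed in limma (0 at an unadjusted p of 0.05). Their median was -0.13, and 13 were below 0 (100%, against 40.6% of all tested genes). They ran from -0.24 (the protease subunit Clpp) to -0.03 (Afg3l2). Of the 13, 4 lay apart, all lower (30.8%, against 15.2% of all genes). With quantile normalization 11 of the 13 were below 0, against 6921 of 14443 genes.

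TRiC is the ring of 8 different subunits that folds actin and tubulin. Of its 9 tested genes 8 were below 0 (88.9%, against 40.6% of all tested genes). The count was also 8 with quantile normalization, where 6921 of 14443 genes were below 0. The median of the 9 was -0.16 (-0.08 with quantile normalization and -0.45 with a common median). Cct6a had signals of 19578 and 21939 with LIF against 14769 and 18018 without LIF, lower on both arrays without LIF by 1.27-fold (log2 change -0.35, SE 0.18, adjusted p = 0.54), and its second probe set read -0.31. Cct3 read 16207 and 17110 with LIF against 15756 and 13751 without LIF and Cct5 17803 and 18745 with LIF against 15109.9 and 17308 without LIF. Both subunits were lower without LIF on both arrays, with log2 changes of -0.18 and -0.18 (adjusted p = 0.76 and 0.76). Other bright probe sets of Cct3 read -0.19, -0.08 and -0.01, the last with overlapping groups. A dimmer Cct3 probe set, at 277 and 352 with LIF against 614.5 and 406 without LIF, read 0.68. Cct2, Cct4, Cct7 and Cct8 lay between -0.16 and -0.09 with overlapping groups. Tcp1 (CCT1) stood at 15881 and 16809.5 with LIF against 15685 and 17477 without LIF, a change of 0.02 (95% interval -0.36 to 0.40). The dimmer Cct6b, a testis form, read 208 and 232 with LIF against 168 and 140.3 without LIF (log2 change -0.52, adjusted p = 0.60). In total 4 of 9 lay apart, each lower (44.4%, against 15.2% of all genes). Intervals of the 8 bright subunits lay between -0.77 and 0.40. Cct8l1 was too dim to test.

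Prefoldin, which passes nascent actin and tubulin to TRiC, read close to 0. Pfdn2 read 4659 and 6442 with LIF against 3870.4 and 5623 without LIF and Pfdn5 3938 and 4280 with LIF against 4257 and 4406 without LIF. Their log2 changes, -0.23 and 0.08, were the lowest and highest of the 5 Pfdn genes tested. Pfdn1 read 3906 and 3347 with LIF against 3543 and 3121 without LIF (log2 change -0.12). Pfdn4 read 4673 and 4854 with LIF against 4349 and 4709 without LIF (-0.07), and Pfdn6 was at -0.05. Limma adjusted p was 0.79 for Pfdn2, 0.86 for Pfdn1, 0.90 for Pfdn5 and 0.91 for Pfdn4. No Pfdn gene had groups apart. Of the 11 genes listed as partners of TRiC and prefoldin 0 passed in limma (0 at an unadjusted p of 0.05). Their median was 0.00066, the value of Vbp1. The ATPases Ruvbl1 and Ruvbl2 read -0.37 and -0.44 (adjusted p = 0.49 and 0.50), and were the only partners of the 11 with groups apart (18.2% lower, against 15.2% of all genes).

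ER chaperones are induced through the ER stress element, CCAAT, 9 bases of any kind and CCACG. It stood in promoters of 4 of the 76 members (5.26%) and of 0.137% of all genes, on either strand. These 4 are Hspa5 (BiP, chr2:34772005-34772063, plus strand), Hsp90b1 (chr10:86705527-86705676, minus strand), Calr (calreticulin, chr8:84847055-84847113, minus strand) and Dnajc3 (chr14:118937807-118937865, plus strand). Their stretches are given on the strand of the gene because 3 of them are the major ER chaperones and 1 is the member whose groups stood apart. Capitals mark the fixed letters of the element on either strand, which Hsp90b1 has at 2 places.
Hspa5: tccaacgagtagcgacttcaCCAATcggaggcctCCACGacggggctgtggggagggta
Hsp90b1: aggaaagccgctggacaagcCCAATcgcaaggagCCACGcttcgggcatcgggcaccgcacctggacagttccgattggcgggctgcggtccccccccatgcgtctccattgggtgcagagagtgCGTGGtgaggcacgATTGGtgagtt
Calr: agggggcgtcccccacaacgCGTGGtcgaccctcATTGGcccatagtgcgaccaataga
Dnajc3: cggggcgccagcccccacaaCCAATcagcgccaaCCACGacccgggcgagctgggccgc

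At the brightest probe sets, 3 of the members with this element had changes near 0 and 1, Dnajc3, read higher. Hspa5, the HSP70 of the ER and sensor of its load, had signals of 12934 and 14476 with LIF against 11521 and 17787 without LIF (log2 change 0.07, 95% interval -0.48 to 0.61, adjusted p = 0.95). A second bright probe set of Hspa5 read 0.09 with overlapping groups. A dimmer one, at 628 and 664 with LIF against 900 and 843 without LIF, read 0.43. Calr, a lectin chaperone of glycoproteins, read 10417 and 11051 with LIF against 7965 and 14594 without LIF (log2 change 0.01, 95% interval -0.66 to 0.67, adjusted p = 0.99). In both, array 1 without LIF was the lowest and array 2 without LIF the highest, so that the change was -0.17 and 0.30 within the numbers for Hspa5 and -0.39 and 0.40 for Calr. Dnajc3 (P58IPK), a J protein of the ER lumen, was higher on both arrays without LIF, at 1089 and 1229 with LIF against 1646 and 1694 without LIF. That is 1.44-fold (log2 change 0.53, SE 0.18, 95% interval 0.09 to 0.97, adjusted p = 0.36; 0.60 between the arrays numbered 1 and 0.46 between those numbered 2), and of its other 4 probe sets 3 read 0.43 to 0.61 and 1 read -0.01. Dnajc10 (ERdj5), a disulfide reductase, was also higher on both, at 1836 and 1943 with LIF against 2232 and 2937 without LIF (log2 change 0.44, adjusted p = 0.49). Dnajb11 and Dnajb9, BiP's other J partners, read 0.20 and -0.07.

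Of the 20 genes of the ER folding and unfolded protein response list, 0 passed in limma and 3 had an unadjusted p of 0.05 or less (15.0%, against 10.9% of all genes), with a median of 0.07 (-0.23 with a common median) and 12 above 0. Serpinh1 (HSP47), the collagen chaperone, had signals of 1386 and 1726 with LIF against 2743 and 3098 without LIF (log2 change 0.91, SE 0.20, adjusted p = 0.14, and 0.0028 with the array number as a block, where it passed). Herpud1 and Edem1, which act in ER-associated degradation, read 0.82 and 0.59 (adjusted p = 0.33 and 0.46; with the block 0.046, which passed, and 0.053, which did not). These 3 were the only list members with groups apart, all higher (15.0%, against 27.3% of all genes). With the array number as a block 10% of the list passed, against 6.75% of all genes. The stress transcription factors Atf4 and Ddit3 (CHOP) overlapped, with 1789 and 2437 with LIF against 1402 and 4296 without LIF for Atf4 and 207 and 247 with LIF against 176 and 399.7 without LIF for Ddit3. Pdia4, a disulfide isomerase, followed the number of the array, at 727 and 1791 with LIF against 586 and 2205 without LIF, as the endoderm markers did.

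Of the 22 listed cofactors of HSP70 and HSP90, 20 were tested. In limma 0 passed (1 at an unadjusted p of 0.05, 5% against 10.9% of all genes). Their median was -0.07, and 15 were below 0 (75.0%, against 40.6% of all genes). With quantile normalization 13 of the 20 were below 0, against 6921 of 14443 genes. Bag2, an exchange factor that restrains the ubiquitin ligase CHIP, read higher on both arrays without LIF, at 292 and 265 with LIF against 701 and 579 without LIF (log2 change 1.20, SE 0.24, adjusted p = 0.13, and 0.0058 with the array number as a block, where it passed). Sil1, the exchange factor of BiP, read 0.51 and Fkbp5, an HSP90 immunophilin, -0.44, both with groups apart (adjusted p = 0.47 and 0.55). Sugt1 and Ahsa1, which act on HSP90, read -0.33 and -0.28. In total 8 of the 20 lay apart, 3 higher and 5 lower (40.0%, against 42.5% of all genes). With the array number as a block 5% of the 20 passed, against 6.75% of all genes.

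The change was also taken between the arrays numbered 1 and between those numbered 2, which the labels do not pair. It had the same sign in both for 56 of 86 members, 34 below 0 and 22 above. The share of all tested genes with the same sign was not counted. Over the members the changes correlated at r = 0.48, and over all tested genes at 0.35, as a description across genes, which are not replicates. Members that differed between numbers by 1 or more on the log2 scale, the same way in both groups, were Dnajc1 (348 and 137 with LIF against 359 and 152 without LIF) and Dnajb14 (90.3 and 41.7 with LIF against 69.9 and 29.8 without LIF). A fit with the number as a term (the block) leaves 1 residual degree of freedom. In it 4 of 86 members passed (4.65%), against 975 of 14445 genes (6.75%). These were Dnajc6 and Hspb1, which fell, and Hspb11 and Dnajb5, which rose (adjusted p = 0.0021, 0.011, 0.028 and 0.044).

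**Figure D4:**
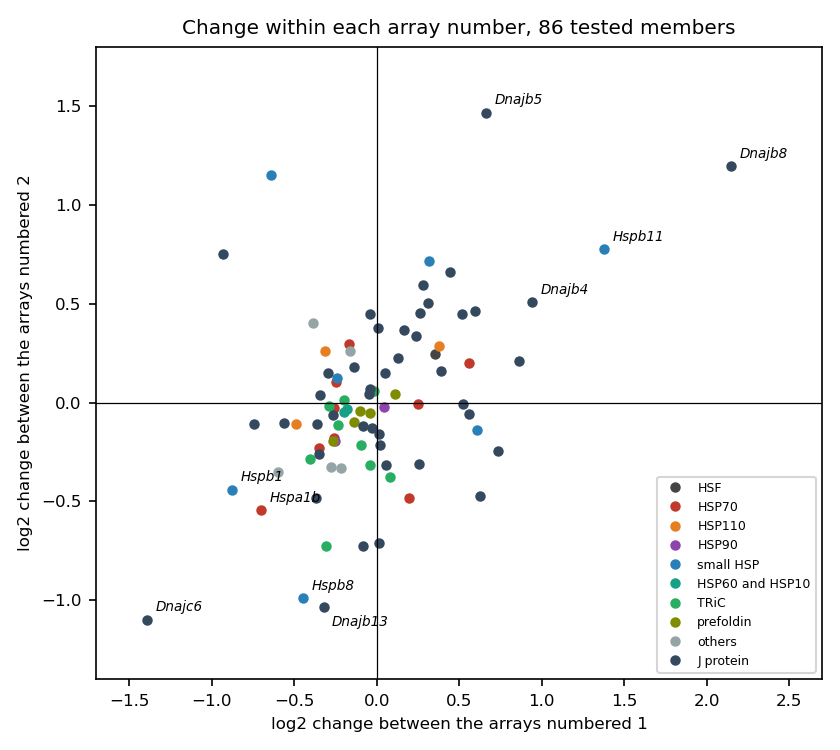
Log2 change between the arrays numbered 1 (horizontal) and between those numbered 2 (vertical) for the 86 tested members, coloured by family, with names where the change over all 4 arrays is 0.6 or more in size. Dnajc6, Hspb1, Hspb8, Hspa1b and Dnajb13 are below 0 on both axes and Dnajb8, Dnajb5, Hspb11 and Dnajb4 above 0 on both.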

How the data were processed

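The deposited values were linear signal intensities of 45101 probe sets made by the authors with MAS5, per the submitters' processing notes, and have a trimmed mean of 500 on each array. Version and build are not given in the sources used here. Signals (the only 1 not above 0 raised to the smallest positive value, 0.1) were taken to log2. The 64 control probe sets and those without exactly 1 symbol were left out, and genes above the 30th percentile of mean log2 signal (4.51, a signal of 22.9) entered a two-sided test of group, with 2 residual degrees of freedom, in limma 3.58.1 (R 4.3.3; lmFit, then eBayes with a trend), adjusted by Benjamini-Hochberg over all tested genes. Intervals are 95% intervals from limma. The number of arrays, 4, limits the precision. The fit was tested on simulated data. Array numbers are a label only. Figures used matplotlib 3.10.9 and Python 3.11.15.

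Array signals and log2 changes are given for a fixed list of well-known chaperones and up to 4 genes per family with the smallest p. These are the members given in full. Dnajb4, Dnajb6, Dnajc9, Dnajc10, Dnajc21, Dnaja1, Dnaja2, Dnajc1, Dnajb14 and the genes named from the related lists were chosen after their values were seen. The members and lists were chosen with earlier results of these data known. The closing section gives the effect of other filters, a pseudocount, normalizations, variance models, probe set choices, the number as a block and each array left out.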

Additional observations from a re-analysis of the deposited data

How the results depend on the processing

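With all 4 arrays the count of members past the test was 0 in every setting tried except those with the replicate block. It was 4 with the block (4.65%, against 6.75% of all genes). With the block and quantile normalization together (chosen after seeing the data) it was 2 (2.33%, against 4.87%). These were Dnajc6 and Hspb1 (limma adjusted p = 0.0063 and 0.025). With 1 array left out a group holds a lone array. For members only the size of a change is then given, and their count past the test is left out, whether or not any passed. The count over all genes in those fits is given below as a range only, and it rests on the same lone array. At an unadjusted p of 0.05 the count of members ran from 3 to 22 over the settings with all 4 arrays. The 22 of 86 came from the replicate block, where 3015 of 14445 genes reached that level. The 3 came with the mean of probe sets (1185 of 13615 genes) and without the trend (1589 of 14445 genes). The numbers pair no samples by the labels; deviations of same-numbered arrays from their group means correlated at r = 0.29, which with 2 arrays a group is 1 value and not 2. The count over all genes, 21, was 41 with a filter at the 50th percentile, 40 with a pseudocount, 10 with quantile normalization, 130 with a common median of all probe sets, 0 without the trend (1589 at an unadjusted p of 0.05), 52 with robust estimation, 12 with the mean of probe sets, 140 at an adjusted p of 0.1, 975 with the replicate block, 703 with the block and quantile normalization, and 7 to 496 with 1 array left out. The median of the members was -0.36 with a common median, where that of all genes was -0.20, and -0.093 to 0.015 with 1 array left out. Leaving out Hspbp1 and Hspbap1 (chosen after seeing the data) gave a median of -0.07 over 84 members.

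Dnajc6, Hspb1, Hspb11 and Dnajb5 kept their sign in every setting. With quantile normalization, with and without the block, Bag3, Hsf2 and Hsph1 read -0.035, -0.040 and 0.027. With a common median Bag3, Calr, Dnajb1, Hsp90b1, Hspa5, Pfdn5 and Tcp1 read -0.24, -0.28, -0.27, -0.28, -0.23, -0.21 and -0.27. With the mean of probe sets Dnajb1, Hsp90aa1, Hsp90b1, Hspa14, Hspbap1 and Pfdn5 read -0.098, 0.13, -0.070, 0.48, 0.043 and -0.56, and Pfdn5 -0.057 with its brightest plain probe set. Over the arrays left out the change of 40 of the 86 tested members crossed 0, 12 of them among those given in full, with ranges of -0.43 to 0.44 for Calr, -0.25 to 0.38 for Hspa5, -0.29 to 0.24 for Hsph1, -0.059 to 0.10 for Tcp1, -0.11 to 0.21 for Bag3, -0.19 to 0.23 for Dnajb1, -0.079 to 0.10 for Hsp90b1, -0.34 to 0.20 for Hspa8, -0.33 to 0.079 for Hspe1, -0.50 to 0.038 for Pfdn2, -0.24 to 0.027 for Hspd1 and -0.56 to 0.28 for Hspa1a. The cause of these shifts was not tested.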

Other observations

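Probe sets of a member did not always read alike. Hspa14 had a second probe set with signals of 639 and 598 with LIF against 2805 and 437 without LIF, high on 1 array only, while its brightest read 3732 and 4581 with LIF against 3124 and 4039 without LIF. Hspa13, an ER-resident HSP70 relative, had a log2 change of 0.12 at its brightest probe set, and 2 dimmer ones read -0.54 and -0.61, both with groups apart. For Dnajc21 the second bright probe set had signals of 1506 and 1373 with LIF against 670.3 and 1013 without LIF, a log2 change of -0.80, larger in size than the -0.43 of the brightest. Dnajc17, a J protein of the spliceosome, read 1699.8 and 1449 with LIF against 3091 and 1677 without LIF, with array 1 without LIF high and the other 3 close together, and its second probe set read -0.24. These were chosen after their values were seen.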
